A study of Bos taurus with 15 samples.

Results

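SNURF, MKRN3 and USP29, genes known for paternal expression, and the unnamed gene record ENSBTAG00000008251 were followed through bovine morulae. They were 4 of the 31999 rows of the deposited count table, and all 4 had counts. SNURF was chosen by its measured values, since it was far lower in embryos without a sperm genome. ENSBTAG00000008251 was chosen by its likeness to SNURF across libraries. MKRN3 and USP29 were taken as genes known for paternal expression and not by their values, though earlier results of these data were known by then. The fold changes of the first pair are therefore a description and carry no p-value, while MKRN3 and USP29 keep the test over all rows.

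The data were RNA-seq counts from 15 libraries of polyadenylated RNA of morulae, the stage of compacting cells before the blastocyst. Haploid androgenetic embryos, with titles beginning TII, carry only a sperm genome. Haploid parthenogenetic embryos, with titles beginning CHX, carry only an oocyte genome. The diploid group, from intracytoplasmic sperm injection (ICSI), carries both. Each group had 5 libraries, and no strain, bull, donor or day was given. The androgenetic and parthenogenetic groups have the same ploidy, and their parental genome and procedure cannot be told apart. Against ICSI, ploidy changes as well. Nothing in the labels says that the libraries of a group came from separate pools or animals, so p-values measure the spread between these libraries only.

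Imprinted genes are transcribed mainly from the allele inherited from 1 parent, according to DNA methylation marks laid down in sperm or oocyte. SNURF and SNRPN lie on a shared transcript whose promoter is methylated on the maternal allele and active on the paternal one. SNURF encodes a small nuclear protein read from the upstream frame, and SNRPN encodes SmN, a core protein of spliceosomal particles. MKRN3, an intronless gene for a makorin RING-finger ubiquitin ligase known as a brake on puberty, belongs to the same imprinted domain. USP29 encodes a ubiquitin-specific protease and lies in a separate domain beside PEG3, a zinc finger gene.

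Libraries held 19968077 to 28981601 counts, so 3 counts corresponded to between 0.104 and 0.150 CPM (count divided by the library total, times 1000000). Genes detected ranged from 13564 to 19950, with the fewest of each group in androgenetic replicate 6, parthenogenetic replicate 6 and ICSI replicate 5. By Spearman correlation over all rows, androgenetic libraries were the least alike (mean of 0.75 to 0.82 with their own group). Except for androgenetic replicate 6, every haploid library was closest to an ICSI library, with the widest gap in androgenetic replicate 4 (0.881 against at most 0.848 with its own group). Of 11 morula markers only SOX2 and ARGFX had a row under a symbol. Both had counts in all 15 libraries, but SOX2 had only 3 counts (0.105 CPM) in androgenetic replicate 6. None of 28 listed markers of cumulus cells, spermatozoa or oocyte stores had such a row, so RNA of those sources was not tested.

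SNURF was abundant in every library with a sperm genome and close to absent in every library without one. It stood at 178, 127, 228, 125 and 205 CPM in androgenetic replicates 1, 2, 4, 5 and 6. In ICSI replicates 1 to 5 it stood at 119, 125, 109, 147 and 189 CPM. In parthenogenetic replicates 1, 2, 3, 5 and 6 it stood at 1.31, 1.56, 0.745, 0.140 and 0.0345 CPM. The lowest androgenetic or ICSI library was thus far above the highest parthenogenetic one, while androgenetic and ICSI libraries overlapped. In bulk RNA, fewer cells with a transcript and less of it per cell cannot be told apart.

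Means were 172.5 ± 46.2 CPM (SD, n = 5) in androgenetic, 137.6 ± 31.7 in ICSI and 0.758 ± 0.680 in parthenogenetic morulae, the last being 0.551% of the ICSI mean. The parthenogenetic values rested on 33, 40, 19, 4 and 1 counts. For the single count of replicate 6 the exact 95% Poisson interval ran from 0.000874 to 0.192 CPM, which covers counting error only. SNURF thus had counts in all 5 parthenogenetic libraries. They were well above the limit of 3 in replicates 1, 2 and 3, just above it in replicate 5 and below it in replicate 6. Where those few reads come from was not tested.

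On edgeR's scale with TMM factors, the log2 fold change of SNURF was -7.41 ± 0.75 (SE) for parthenogenetic minus ICSI and 8.24 ± 0.78 for androgenetic minus parthenogenetic. Because these contrasts chose the gene, they are given as sizes. All 5 libraries lay below all 5 of ICSI in 0.837% of the 16375 tested rows, and all 5 androgenetic above all 5 parthenogenetic libraries in 1.38%. Rows called at an adjusted p under 0.05, in either direction, were 0.0733% for parthenogenetic minus ICSI and 1.75% for androgenetic minus parthenogenetic, with 0.916% called higher.

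Between androgenetic and ICSI morulae, each with a paternal SNURF allele, the sizes were small. The log2 fold change was 0.82 ± 0.57 with TMM factors, and 0.33 when libraries were scaled by column totals alone. That scaling also moved the median of all rows by -0.53, so relative to the median SNURF was 0.87 higher with column totals and 0.81 higher with DESeq2 size factors. In this contrast 2.82% of rows were called.

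ENSBTAG00000008251, which the files leave unnamed, had almost the same profile. It stood at 194, 148, 324, 134 and 257 CPM in androgenetic replicates 1, 2, 4, 5 and 6, and at 185, 180.2, 149.9, 211 and 261 CPM in ICSI replicates 1 to 5. Parthenogenetic replicates 1, 2, 3, 5 and 6 had 1.39, 1.56, 0.785, 0.140 and 0.0690 CPM. The parthenogenetic libraries again lay below all others, and their order was that of SNURF.

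Means of this record were 211 ± 79.2 CPM (n = 5) in androgenetic, 197 ± 41.5 in ICSI and 0.789 ± 0.688 in parthenogenetic morulae. Its log2 fold changes were -7.87 ± 0.74 for parthenogenetic minus ICSI, 8.46 ± 0.76 for androgenetic minus parthenogenetic and 0.59 ± 0.55 for androgenetic minus ICSI, the last 0.10 with column totals alone. The table orders Ensembl records apart from those with symbols, and no file used here says whether this record overlaps SNURF or SNRPN.

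**Figure D1:**
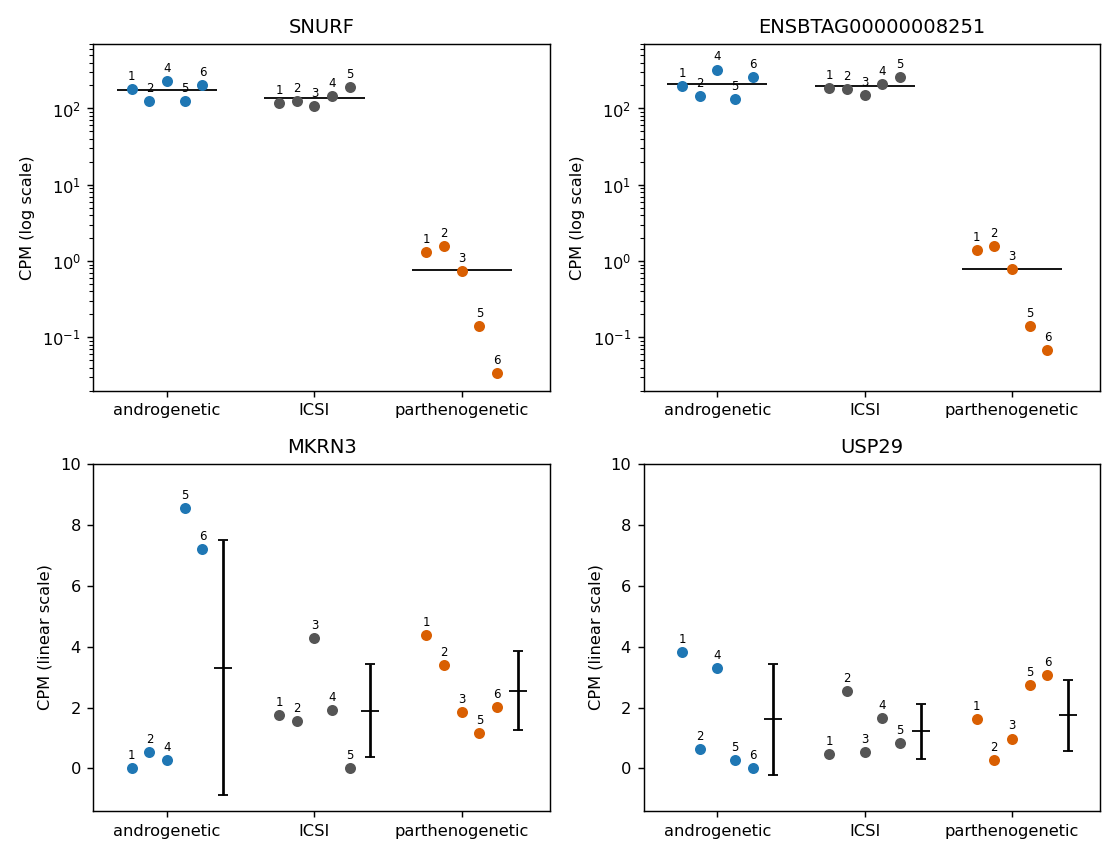
CPM of SNURF, ENSBTAG00000008251, MKRN3 and USP29 in each of the 15 libraries, numbered by replicate; the upper panels have a log axis with a line at the group mean, the lower panels a linear axis with the mean ± SD (n = 5) at the side. SNURF lies between 109 and 228 CPM in androgenetic and ICSI libraries and at most at 1.56 CPM in parthenogenetic ones, while MKRN3 and USP29 overlap between all groups.

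The proportion of these records to each other varied between libraries. In the parthenogenetic libraries their counts were nearly equal: 35, 40, 20, 4 and 2 for ENSBTAG00000008251 against 33, 40, 19, 4 and 1 for SNURF. In ICSI libraries ENSBTAG00000008251 had 1007 to 1737 counts more than SNURF, and its ratio to SNURF was 1.55, 1.44, 1.38, 1.44 and 1.38 in replicates 1 to 5. In androgenetic replicates 1, 2, 4, 5 and 6 the ratio was 1.09, 1.17, 1.42, 1.07 and 1.26. Androgenetic replicate 4 alone reached the ICSI range, and the other 4 androgenetic libraries lay below every ICSI library.

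The mean ratio was 1.20 ± 0.14 (SD, n = 5) in androgenetic against 1.44 ± 0.07 in ICSI libraries, a difference of -0.238. Without androgenetic replicate 4 the difference was -0.292. The ratio is given with no test, because ENSBTAG00000008251 was chosen for following SNURF. The parthenogenetic mean of 1.22 ± 0.44 was set by replicate 6, whose ratio of 2.0 is that of 2 counts to 1. Over summed counts, 101 against 97, the parthenogenetic ratio was 1.04. The other 4 parthenogenetic libraries, at 1.0 to 1.06, lay below every androgenetic and ICSI library, on as few as 4 counts each. The parthenogenetic mean minus the ICSI mean was -0.216 with all libraries and -0.410 without replicate 6. A ratio between rows depends on their lengths and on how reads over both were counted, so its change between groups is what can be read.

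**Figure D2:**
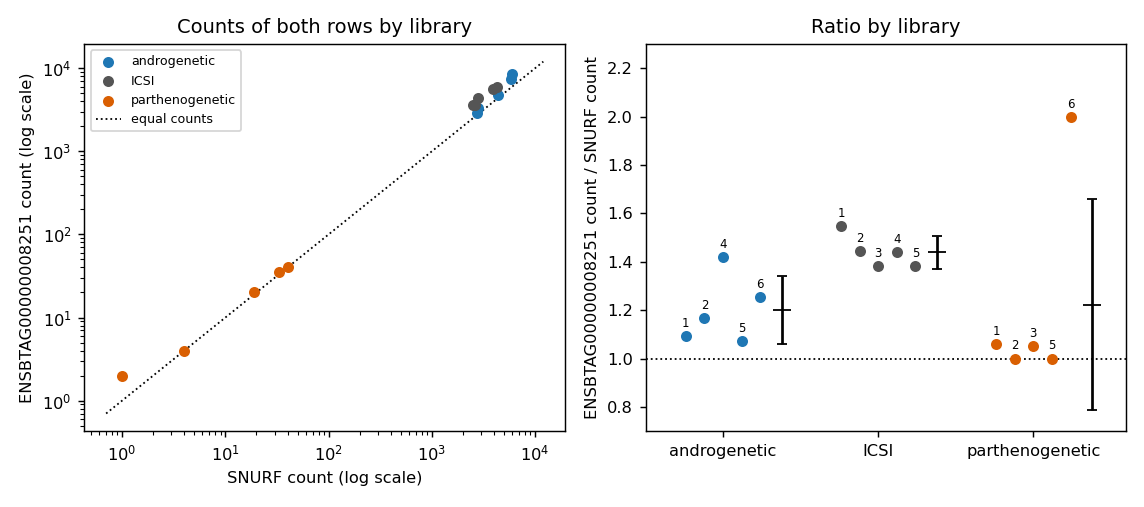
Left, counts of ENSBTAG00000008251 against SNURF in each library on log axes, with a dotted line at equal counts; right, their ratio in each library, numbered by replicate, with the group mean ± SD (n = 5). Parthenogenetic replicates 2 and 5 lie on the line of equal counts, replicates 1 and 3 within 2 counts of it and replicate 6 at 2 against 1 count, ICSI ratios lie between 1.38 and 1.55, and androgenetic ratios between 1.07 and 1.42.

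MKRN3, in the same domain as SNURF, was not lower without a sperm genome. It had 4.38, 3.38, 1.84, 1.16 and 2.0 CPM in parthenogenetic replicates 1, 2, 3, 5 and 6, from 33 to 110 counts. ICSI replicates 1 to 5 had 1.75, 1.55, 4.27, 1.93 and 0 CPM. Androgenetic replicates 1, 2, 4, 5 and 6 had 0, 0.539, 0.269, 8.56 and 7.20 CPM. Counts were thus found in all 5 parthenogenetic libraries, 4 of 5 ICSI and 4 of 5 androgenetic libraries, and the androgenetic group held both the highest and some of the lowest values. The zeros allow up to 0.132 CPM in ICSI replicate 5 and 0.123 CPM in androgenetic replicate 1.

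Mean MKRN3 was 2.55 ± 1.30 CPM (n = 5) in parthenogenetic, 1.90 ± 1.53 in ICSI and 3.31 ± 4.20 in androgenetic morulae. Its log2 fold changes were 0.74 ± 1.31 for parthenogenetic minus ICSI (edgeR adjusted p = 1.0), 0.89 ± 1.31 for androgenetic minus parthenogenetic (0.765) and 1.63 ± 1.33 for androgenetic minus ICSI (0.536). With limma voom the second was -1.37, so its direction depended on the tool.

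USP29 was low in every group. It had 1.63, 0.272, 0.981, 2.74 and 3.07 CPM in parthenogenetic replicates 1, 2, 3, 5 and 6, and 0.470, 2.55, 0.534, 1.67 and 0.833 CPM in ICSI replicates 1 to 5. Androgenetic replicates 1, 2, 4, 5 and 6 had 3.83, 0.629, 3.30, 0.278 and 0 CPM. Libraries of all 3 groups were interleaved. Means were 1.74 ± 1.17, 1.21 ± 0.890 and 1.61 ± 1.81 CPM (n = 5) in parthenogenetic, ICSI and androgenetic morulae.

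The log2 fold changes of USP29 were 0.83 ± 1.17 for parthenogenetic minus ICSI (edgeR adjusted p = 1.0), -0.06 ± 1.16 for androgenetic minus parthenogenetic (0.985) and 0.77 ± 1.17 for androgenetic minus ICSI (0.771, and -0.30 with limma voom). The direction of the second turned with DESeq2 size factors, where it was 2.67e-05. Of MKRN3 and USP29, 0 of 2 were called in each contrast by edgeR, DESeq2 and limma voom, and 0 of 2 had an unadjusted edgeR p under 0.05. Over all 16375 rows edgeR called 2.82% for androgenetic minus ICSI, 0.0733% for parthenogenetic minus ICSI and 1.75% between the haploid groups, and 3231, 304 and 3056 rows had such an unadjusted p. At their standard errors of over 1 on the log2 scale, a change of a few fold was not detectable. MKRN3 and USP29, described as paternally expressed, thus had counts in all 5 libraries that lack a paternal genome. Whether the counting used strand is not given, so antisense reads cannot be told apart from either gene.

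Within the androgenetic group MKRN3 and USP29 moved neither with SNURF nor with each other. ENSBTAG00000008251, chosen for following SNURF, had the same order of libraries as SNURF. Replicate 5 had the highest MKRN3 and the lowest SNURF, replicate 1 had the highest USP29 and no MKRN3 count, and replicate 6 had 7.20 CPM of MKRN3 and no USP29 count. Replicate 6 is also the library with fewest genes detected, and its part in these values was not tested.

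Rows around the members were taken from the order of genes in the RefSeq annotation of assembly ARS-UCD2.0, used for names and neighbours only because the build of the counts is not given. That choice was made after the counts had been seen. From MKRN3 to GABRG3 the annotation lists 53 genes, 34 of them for small nucleolar RNAs (snoRNAs), which guide RNA modification, and 5 had a row under their name. SNURF lies inside SNRPN, which has no row under its symbol, so reads of these genes cannot be told apart. A single snoRNA gene separates SNURF from LOC100848941, a long non-coding RNA whose span holds 26 snoRNA genes. In human and mouse, long transcripts downstream of SNRPN are known as paternally expressed hosts of snoRNA arrays.

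LOC100848941 had no count in parthenogenetic replicates 1, 5 and 6, and 1.05 and 1.22 CPM in replicates 2 and 3. ICSI replicates 1 to 5 had 11.1, 25.5, 16.3, 12.0 and 11.7 CPM. Androgenetic replicates 1, 2, 4, 5 and 6 had 22.9, 20.5, 15.6, 0.925 and 12.4 CPM. Every ICSI library was above every parthenogenetic one, as in 0.837% of all tested rows. Androgenetic replicate 5, however, lay among the parthenogenetic values although its SNURF stood at 125 CPM.

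This RNA was higher in androgenetic than in parthenogenetic morulae, with a log2 fold change of 5.41 ± 1.27 (edgeR adjusted p = 0.0392). The call rested on the set of libraries: it held in 6 of 15 fits that left out 1 library each, with an adjusted p of 0.0289 to 0.0978. It was lost without parthenogenetic replicate 1, 3 or 5, ICSI replicate 1, 2, 3 or 4, or androgenetic replicate 1 or 2, while the change lay between 5.08 and 6.08 over all 15. It was also lost in the edgeR fit of the haploid groups alone (adjusted p = 0.139) and with the replicate number as a block (adjusted p = 0.0662). Against ICSI the parthenogenetic change was -4.93 ± 1.25, which did not pass in edgeR (adjusted p = 0.574) and passed in DESeq2 (-4.97, adjusted p = 8.92e-04). Androgenetic minus ICSI was 0.48 ± 1.05 (adjusted p = 0.849), and -0.08 with column totals alone.

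LOC101907203, a long non-coding RNA whose span also holds 6 snoRNA genes, overlaps UBE3A, a ubiquitin ligase gene known for maternal expression in neurons. LOC101907203 was present in all groups. The mean was 54.7 ± 18.1 CPM (SD, n = 5) in parthenogenetic libraries, 54.7 ± 21.9 in ICSI libraries and 76.9 ± 43.5 in androgenetic ones. Its log2 fold changes were 0.21 ± 0.42 for parthenogenetic minus ICSI (edgeR adjusted p = 1.0, and -0.000477 with column totals alone), 0.99 ± 0.43 for androgenetic minus parthenogenetic (0.219) and 1.20 ± 0.43 for androgenetic minus ICSI (0.122). DESeq2 called the last (1.35, adjusted p = 0.0243). GABRG3, a subunit gene of the GABA-A receptor at the far end of the interval, had 18 to 20 counts in every parthenogenetic library. It had 23 to 51 counts in ICSI and 21 to 117 in androgenetic libraries. Parthenogenetic CPM, at most 0.785, thus lay below all others, narrowly so against 0.864 in androgenetic replicate 1. Of all tested rows, 0.837% lay below all ICSI libraries in this way, and 1.38% below all androgenetic ones. edgeR called neither parthenogenetic minus ICSI (-0.84 ± 0.83, adjusted p = 1.0) nor androgenetic minus parthenogenetic (2.01 ± 0.86, adjusted p = 0.213), and DESeq2 called the latter (2.16, adjusted p = 0.0165).

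**Figure D3:**
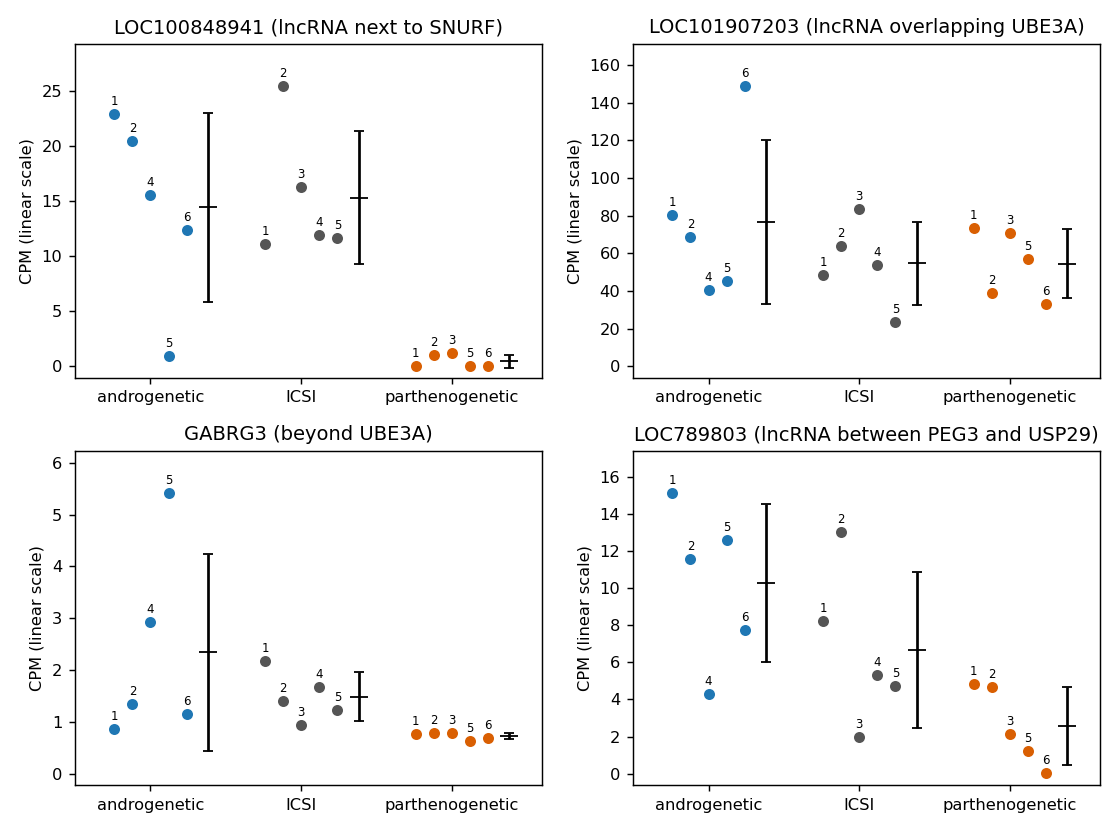
CPM on linear axes of LOC100848941, LOC101907203, GABRG3 and LOC789803 in each library, numbered by replicate, with the group mean ± SD (n = 5) at the side. LOC100848941 is at most 1.22 CPM in parthenogenetic libraries and 0.925 CPM in androgenetic replicate 5, against 11.1 to 25.5 CPM in ICSI libraries.

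From PEG3 to DUXA the annotation lists 8 genes, and 4 had a row. LOC789803, a long non-coding RNA between PEG3 and USP29, had 4.82, 4.67, 2.12, 1.23 and 0.0345 CPM in parthenogenetic replicates 1, 2, 3, 5 and 6. It ranged from 1.97 to 13.0 CPM in ICSI (median 5.31) and from 4.30 to 15.1 CPM in androgenetic libraries (median 11.6). Androgenetic values were mostly above parthenogenetic ones, with replicate 4 overlapping. The log2 fold change between the haploid groups was 2.44 ± 0.87 (edgeR adjusted p = 0.135), which DESeq2 called (2.59, adjusted p = 0.0125).

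ZIM3, a zinc finger gene next to USP29, had a mean of 18.1 ± 10.8 CPM (SD, n = 5) in parthenogenetic libraries, 36.4 ± 29.5 in ICSI libraries and 46.8 ± 24.9 in androgenetic ones. Its change between the haploid groups was 1.81 ± 0.60 (edgeR adjusted p = 0.111), which DESeq2 called (1.94, adjusted p = 0.0198). DUXA, a homeobox gene of the cleavage stages, had 4.02 ± 1.09 in the same contrast (edgeR adjusted p = 0.0615). That value rested on androgenetic replicate 6, without which it was 1.28 (adjusted p = 0.249). It passed without ICSI replicate 5 (4.04, edgeR adjusted p = 0.0472) or androgenetic replicate 4 (4.24, adjusted p = 0.0425). Of these 6 neighbouring rows edgeR called LOC100848941 and no other, and only between the haploid groups, where it called 1.75% of all rows. DESeq2, whose calls of GABRG3, LOC789803 and ZIM3 in that contrast are given above, called 1678 of the 16375 kept rows there. For androgenetic minus ICSI it called 1987 of them. Its results for LOC100848941 and DUXA between the haploid groups are not given here.

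**Figure D4:**
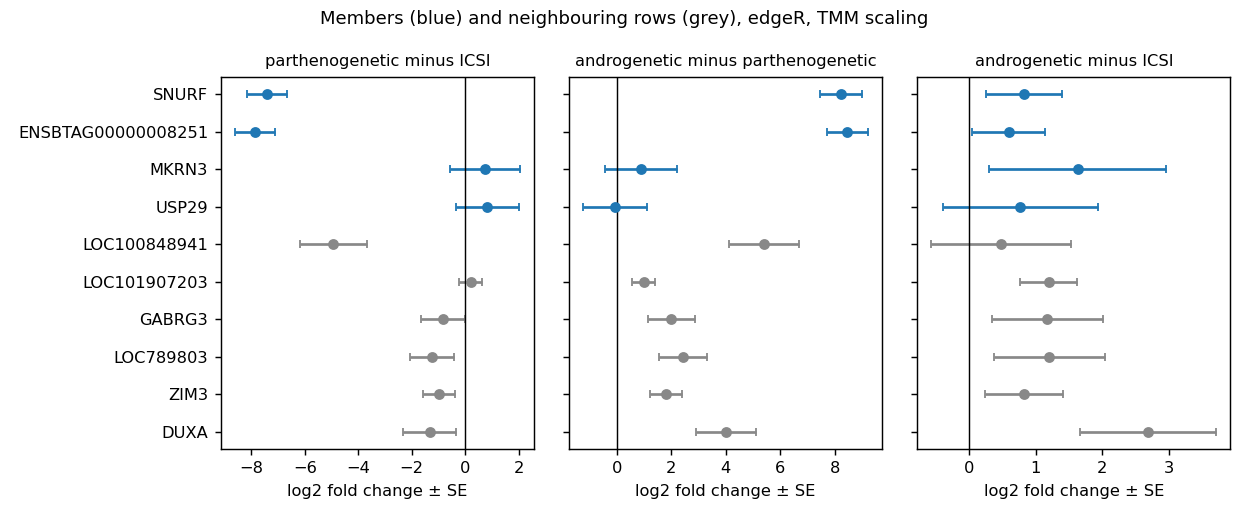
Log2 fold changes with their standard errors from edgeR for the 4 members (blue) and 6 neighbouring rows (grey), in 3 panels whose horizontal scales differ. SNURF and ENSBTAG00000008251 lie near -7.41 and -7.87 for parthenogenetic minus ICSI, LOC100848941 at -4.93, and MKRN3 and USP29 at 0.74 and 0.83.

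The wider lists could barely be read, because most genes stand under Ensembl identifiers that no file used here pairs with names. Of 45 listed paternally expressed genes 3 had a row (SNURF, MKRN3 and USP29), and of 37 listed maternally expressed genes 4 had one. Of those 4, MEG3 and MEG8, non-coding RNAs of the DLK1 domain, were uneven within groups. MEG3 stood at 6.41, 0, 3.61, 3.69 and 0 CPM in parthenogenetic replicates 1, 2, 3, 5 and 6, at most at 0.853 CPM in androgenetic and at 0 in all ICSI libraries. MEG8 ranged from 0.117 to 5.97 CPM in parthenogenetic and from 0 to 0.370 CPM in ICSI libraries, and was at 0 in androgenetic libraries except replicate 4, at 3.0 CPM. These groups overlapped. The others were ZIM3 and XIST. Although listed as maternally expressed, ZIM3 had its lowest mean in parthenogenetic libraries (18.1 CPM, against 36.4 in ICSI and 46.8 in androgenetic ones), with groups overlapping. XIST is the RNA that coats an inactive X chromosome. It stood at 26.6 to 74.1 CPM in parthenogenetic, 1.32 to 51.9 in ICSI and 4.04 to 17.2 in androgenetic libraries. Whether XIST came from a maternal allele was not tested, and the sex chromosomes of the embryos were not examined. Of 15 listed spliceosomal proteins only SNRNP70 had a row, at 5.76 to 13.5 CPM in parthenogenetic and 5.57 to 24.6 CPM in ICSI libraries, which overlapped. None of 17 listed factors of imprint maintenance had one.

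Over the 10 androgenetic and ICSI libraries, the row most like SNURF was ENSBTAG00000024476, with a Pearson correlation of log2 CPM of 0.96 among 14349 rows. The next were ENSBTAG00000031544 (0.92), ENSBTAG00000050532 (0.92), ENSBTAG00000051969 (0.92) and ENSBTAG00000051689 (0.91). ENSBTAG00000050532 and ENSBTAG00000051969 had nearly equal counts in every library, such as 24391 and 24393 in androgenetic replicate 4. All were picked as the highest of 14349 values over 10 libraries, and no test was made of them. ENSBTAG00000008251 ranked 11 at 0.89, and LOC100848941 ranked 2760 at 0.17. The closest row was not lost without a sperm genome: ENSBTAG00000024476 averaged 593 ± 150.0 CPM (n = 5) in parthenogenetic against 492 ± 104 in ICSI libraries. The 10 libraries also differ in depth and genes detected. The rows most like MKRN3 over all 15 libraries were ENSBTAG00000002817 (0.93), LOC112447410 (0.91) and ENSBTAG00000020726 (0.90). Those most like USP29 were ENSBTAG00000000877 (0.84), ENSBTAG00000004464 (0.83) and ENSBTAG00000050510 (0.81).

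The record listed directly after ENSBTAG00000008251 in the table, ENSBTAG00000047865, was singled out after its values were seen. It had no count in any of the 5 parthenogenetic libraries, 22 to 82 counts in ICSI and 49 to 237 in androgenetic libraries. Its name and position are not given in the sources used here.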

How the data were processed

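Libraries were made from polyadenylated RNA with SMART-Seq HT and Nextera XT kits, per the labels' protocols. Per the submitters' processing notes, Trim Galore, cutadapt, STAR and featureCounts were used; versions, genome build, annotation, strand setting and the treatment of reads over several genes remain not given in the sources used here. Values are raw counts per gene and library as deposited, without normalization by the authors. Groups and replicate numbers came from the labels.

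CPM is the count divided by the column total, times 1000000. Contrasts were fitted with edgeR 4.0.16 (quasi-likelihood) in R 4.3.3 on all 15 libraries, with TMM factors, its default filter by group (16375 rows kept) and p-values adjusted by Benjamini-Hochberg over all kept rows; calls needed an adjusted p below 0.05. The 4 members all passed the filter. The edgeR fit was also run on simulated counts with known changes set in the androgenetic group only. Its outcome is not given here, so it lends no support to the calls. DESeq2 1.42.0, limma 3.58.1 (voom), other scaling factors, no filter, fits of 2 groups, a replicate block and leaving out each library were alternatives. Named rows were the members, listed imprinted genes with a row, the 5 rows most like SNURF and the 3 most like MKRN3 and USP29 (log2 of CPM + 0.1, mean of at least 1 CPM), and annotated neighbours. Of 4392 rows without an Ensembl identifier, 3007 matched RefSeq by name. The members and lists were chosen with earlier results of these data known. No sequence is printed, as no sequence table was used here.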

Additional observations from a re-analysis of the deposited data

Results flagged for a closer look

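In 33 groups of 5 libraries, 4 had an end value separated from the rest by more of the group's range than chance gives in about 1 in 20 groups. The ratio of ENSBTAG00000008251 to SNURF was 2.0 in parthenogenetic replicate 6 against at most 1.06 in the others, from 2 and 1 counts. ZIM3 stood at 88.4 CPM in ICSI replicate 5, with the next ICSI library at 28.7 CPM. DUXA stood at 594 CPM in the same library, with the next at 175.5 CPM, and at 4165 CPM in androgenetic replicate 6, with the next at 482 CPM. Both libraries have the fewest genes detected of their group; the part of this in the values was not tested.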

How the results depend on the processing

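SNURF and ENSBTAG00000008251 kept their directions in every contrast under every alternative run. When each library was left out, SNURF lay at -7.92 to -7.12 (parthenogenetic minus ICSI) and 7.94 to 8.73 (androgenetic minus parthenogenetic). SNURF was chosen for its low parthenogenetic values and ENSBTAG00000008251 for following it, so in these contrasts the kept direction is no separate support. For androgenetic minus ICSI, column totals alone gave 0.33 and 0.10. Numbers of called rows moved most. For androgenetic minus ICSI they were 1987 with DESeq2, 876 with limma voom, 1630 without the 3 libraries with fewest genes detected (chosen after seeing the data) and 0 to 1077 leaving out each library, against 461. For parthenogenetic minus ICSI they were 39 with DESeq2, 6 without those 3 libraries and 3 to 14, against 12. For androgenetic minus parthenogenetic they were 1678, 703 with limma voom, 27 in the fit of these groups alone, 1874 without those 3 libraries and 14 to 903, against 287. With the replicate block they were 0, 3 and 88 in that order. Log2 deviations of same-numbered libraries correlated at -0.08 to 0.11 over 12 pairs, and 2 of 15 libraries were closest to their own number. The labels do not say what the number stands for, and a shared origin of same-numbered libraries was not tested. The block ended the call of LOC100848941 between the haploid groups (6.95, edgeR adjusted p = 0.0662), as did the fit of these groups alone (5.52, adjusted p = 0.139).

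With column totals alone, the median of all rows moved by -0.53 for androgenetic minus ICSI, by -0.19 for parthenogenetic minus ICSI and by -0.33 between the haploid groups, and with DESeq2 size factors by 0.14 in the first and 0.12 in the last. Calls were 288 higher and 173 lower in the first, 127 and 455 with column totals, and 372 and 139 with DESeq2 size factors; in the last they were 150 and 137, 129 and 239, and 167 and 102.

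The values whose direction turned were all uncalled. USP29 between the haploid groups was 2.67e-05 with DESeq2 size factors, 0.00251 with DESeq2, 0.00828 in the fit of these groups alone, 0.883 without the 3 libraries and -0.68 to 0.45 leaving out each library; androgenetic minus ICSI it was -0.30 with limma voom. MKRN3 between the haploid groups was -1.37 with limma voom. LOC100848941 was -0.0809 for androgenetic minus ICSI and LOC101907203 -0.000477 for parthenogenetic minus ICSI with column totals alone. ZIM3 was 0.0432 for parthenogenetic minus ICSI without the 3 libraries, and DUXA ran from -0.0551 (without androgenetic replicate 6) to 3.57 for androgenetic minus ICSI leaving out each library. The ratio difference ran from -0.292 to -0.205 for androgenetic minus ICSI, from -0.410 to -0.160 for parthenogenetic minus ICSI and from -0.0771 to 0.173 between the haploid groups leaving out each library, and without the 3 libraries the last pair were -0.425 and 0.159. The cause of these changes was not tested. MKRN3 and USP29 rested on at most 205 and 93 counts a library, and MKRN3 at 0 and 7.20 CPM in androgenetic replicates 1 and 6 (exact 95% Poisson intervals 0 to 0.152 and 6.25 to 8.26 CPM) differed by more than counting error.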
